A study of Rattus norvegicus with 6 samples.

Results

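Circulating monocytes enter the injured spinal cord within days of trauma. Cells with a monocyte-type RNA profile were picked from single-cell libraries of intact cord and of cord 1, 3 and 7 days after a crush injury. A cell was taken when Tyrobp and Fcer1g, adaptor genes shared by myeloid cells, together made up at least 10 of every 10000 of its UMIs (unique molecular identifiers, 1 per captured RNA molecule) and when it held at least 3 UMIs of Ly6c2, Ccr2 and Plac8 together. It also had to hold at most 2 UMIs of Arg1, at most 2 of Gpnmb, none of Flt3, and fewer than 50 S100a8 and S100a9 UMIs per 10000. These limits are aimed at 2 kinds of lesion macrophage, dendritic cells and neutrophils, although some markers of dendritic cells and neutrophils were still found in the cells kept. The gate found 894 of 26847 cells, which were 33 of 2757 cells in the intact library, 349 of 7360 at 1 day post injury (dpi), 332 of 9263 at 3 dpi and 180 of 7467 at 7 dpi. With 33 cells the intact library fell short of the 50 set for a comparison, so its values are a description only. The levels of the gate's 10 genes are likewise a description, since they chose the cells.

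The 4 libraries came from whole dissociated spinal cord of animals labelled genotype SD and aged 6 to 8 weeks, with 5 animals for each condition. The crush was made at thoracic level 10, and a 5 mm piece centred on the lesion was digested with collagenase and then trypsin. The groups are the intact cord, 1 dpi, 3 dpi and 7 dpi, with 1 library each, so no test of a difference between times is possible, and time cannot be told apart from library. The labels name a crush treatment for the intact library too; its title was followed here. The labels name rat, while the tables carry mouse-style gene names: 7654 of the 28615 gene names shared by the 4 tables, 26.7%, are of the Gm, Rik or ENSMUSG type, and another 4235 are absent from a rat gene table, so the species of the genes is left unstated.

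Classical monocytes are bone marrow-derived blood cells that carry Ly6C and the chemokine receptor CCR2 and leave the marrow along gradients of CCL2 and CCL7. In tissue they lose that profile over days and take on macrophage genes, among them the C1q subunits, lysosomal proteases and lipid carriers, or become antigen-presenting cells with MHC class II. Ly6c2 codes for the Ly6C antigen, Ccr2 for the receptor, and Plac8 for a small cysteine-rich protein found in monocytes and some lymphocytes and progenitors. Vcan, named as a further marker, codes for the matrix proteoglycan versican.

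The gated cells made up 1.20% of all cells in the intact library (95% Clopper-Pearson interval 0.825 to 1.68), 4.74% at 1 dpi (4.27 to 5.25), 3.58% at 3 dpi (3.21 to 3.98) and 2.41% at 7 dpi (2.07 to 2.78). Of cells past the Tyrobp and Fcer1g limit alone they were 3.47%, 7.21%, 4.71% and 3.17% in the same order. The share was highest at 1 dpi on both denominators and lower at each later time. All intervals here cover counting error only, not the spread between animals. A share of cells also moves with how well other cell types survived dissociation, which was not tested. How many cells entered the cord was not measured.

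**Figure D1:**
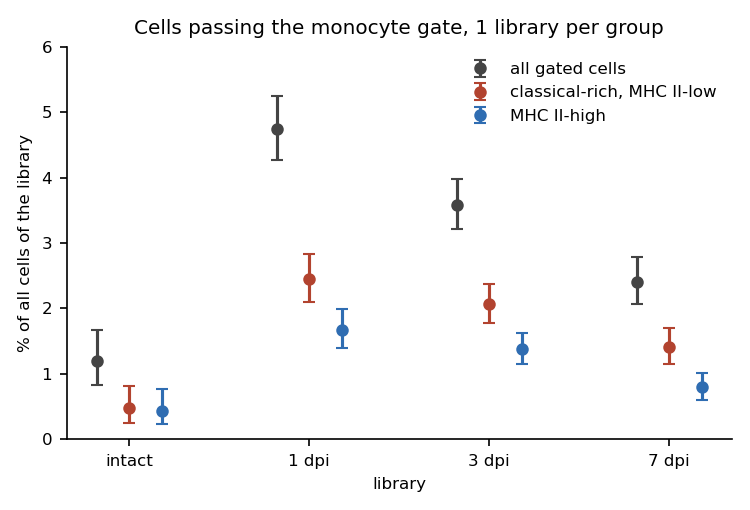
Share of all cells of each library (percent, y axis) that passed the gate, in intact cord and at 1, 3 and 7 dpi (x axis), for all gated cells in grey, classical-rich MHC II-low cells in red and MHC II-high cells in blue. Points are 1 library each and bars are 95% Clopper-Pearson intervals; the grey points are highest at 1 dpi, at 4.74%, and lower at each later time.

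The gated cells had a median of 4215, 4338, 4575.5 and 3068.5 UMIs from intact to 7 dpi, against 3090, 5340.5, 6648 and 3617 in all cells, and their summed UMIs were 138726, 1883689, 1802300 and 655830. Mitochondrial genes took a median of 2.54%, 2.30%, 2.32% and 2.29% of a gated cell's UMIs. Between 20 and 91 cell barcodes were shared by any pair of libraries, at most 1.24% of the smaller library, and 4 shared barcodes marked a gated cell in both libraries of a pair, 2 for 1 and 3 dpi and 2 for 1 and 7 dpi. Endothelial cells of the same libraries, which should lack monocyte genes, were used to show the level that free RNA gives; they had a median of 3006, 4722.5, 4300 and 2666 UMIs.

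With the limits applied in the order given, the Arg1 limit took out the most cells after the 3-gene step at 1 and 3 dpi, and the neutrophil limit the most in the intact and 7 dpi libraries. The Arg1 limit left out 0, 1018, 304 and 6 cells from intact to 7 dpi and the Gpnmb limit 0, 1, 114 and 27. The neutrophil limit came last and left out 40, 236, 45 and 163 cells, which was 54.8%, 40.3%, 11.9% and 47.5% of those that had passed every earlier step. The cells removed by the neutrophil limit held 4729, 4150, 4651 and 4235 CPM of Chil3 (UMIs of a gene per 1000000 summed UMIs), a secreted chitinase-like protein of monocytes and neutrophils, and 9458 to 15388 CPM of Lyz2, the lysozyme of monocytes, macrophages and neutrophils. Both genes are shared with neutrophils. Ms4a4c, a membrane protein of monocytes, was at 73.9, 85.0, 63.4 and 42.1 CPM in the removed cells; how many of them are monocytes was not tested. Shares of all cells without that limit were 2.65%, 7.95%, 4.07% and 4.59%, with 7 dpi above 3 dpi. At the edge of the rule, 1, 44, 64 and 17 cells held exactly 3 UMIs of Ly6c2, Ccr2 and Plac8, with 0, 598, 630 and 195 CPM of Chil3, and 2, 64, 93 and 46 cells held 2 UMIs, with 0, 290, 510 and 129 CPM of Chil3.

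The gated cells did not behave as a single population. The 4 genes of antigen presentation H2-Aa, H2-Ab1, H2-Eb1 and Cd74 (MHC class II chains and the invariant chain) were near 0 in most cells and abundant in the rest. A limit of 50 UMIs of these 4 genes per 10000, chosen after seeing the values, called 12 cells MHC II-high in the intact library, 123 at 1 dpi, 127 at 3 dpi and 59 at 7 dpi, which was 36.4%, 35.2%, 38.3% and 32.8% of gated cells. Few cells lay near that limit: 1, 29, 26 and 16 had between 25 and 100. The MHC II-low cells were split again by a list of 20 classical monocyte genes, most of whose UMIs are Lyz2. At 100 or more such UMIs per 10000, also chosen after seeing the values, 13, 180, 191 and 105 cells counted as classical-rich, or 39.4%, 51.6%, 57.5% and 58.3% of gated cells. The other 8, 46, 14 and 16 cells counted as classical-poor, and 1, 48, 46 and 16 cells lay between 50 and 200. Both are ranges of a score and not cell types.

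**Figure D2:**
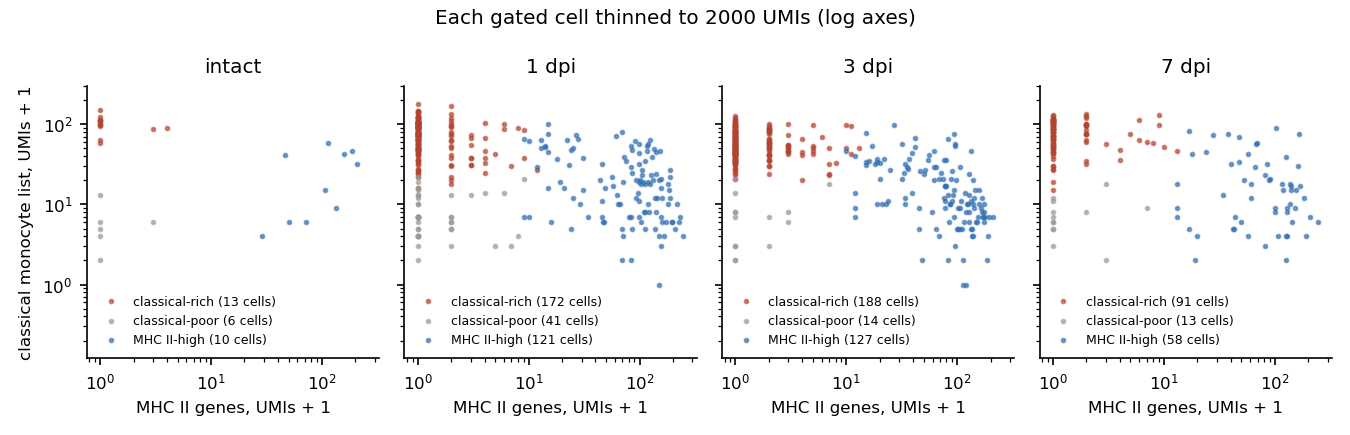
Each gated cell thinned to 2000 UMIs, with UMIs of the 4 MHC class II genes plus 1 on the x axis and UMIs of the classical monocyte list plus 1 on the y axis, both log scales, in 1 panel per library. Colours give classical-rich, classical-poor and MHC II-high cells; most cells lie either high on the y axis and low on the x axis or the reverse, and the 1 dpi panel holds the most classical-poor cells, 41.

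In single cells the classical list and the 4 MHC class II genes ran against each other. After each cell was thinned to 2000 UMIs, the median classical list level in MHC II-high cells was 22.5, 17, 11 and 14 UMIs from intact to 7 dpi, against 90, 62, 50.5 and 69.5 UMIs in MHC II-low cells. Spearman's rho between the measures was -0.51 over 334 cells at 1 dpi, -0.62 over 329 at 3 dpi and -0.50 over 162 at 7 dpi, where cells of a library share depth and free RNA. Thinning left out 4, 15, 3 and 18 shallower cells.

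Classical-poor cells carried genes of several other cell types. A microglia list reached 3 UMIs in 50%, 58.7%, 64.3% and 43.8% of them, against 30.8%, 8.33%, 30.9% and 25.7% of classical-rich cells. At least 3 UMIs of a natural killer and T cell list were found in 25%, 26.1%, 35.7% and 43.8% of classical-poor cells. In classical-rich cells those shares were 0%, 0.556%, 0% and 0.952%. At least 3 UMIs of a plasmacytoid dendritic list were found in 37.5%, 19.6%, 50% and 12.5% of classical-poor cells. In classical-rich cells they were found in 0%, 0%, 0% and 0.952%. Siglech is on both the microglia and the plasmacytoid list. These shares are of cells not thinned, and classical-poor cells had a median of 3370.5, 9731.5, 4463 and 4181.5 UMIs. Classical-rich cells had a median of 5107, 4069.5, 4095 and 2795 UMIs. The part of depth in these shares was not tested. In the summed classical-poor cells Ccl5, a chemokine of T and NK cells, was at 2474, 502, 449 and 1989 CPM, and Mcpt8, a basophil protease, was at 0, 547, 954 and 6009 CPM. Mcpt8 rests on few cells: a mast cell and basophil list reached 3 UMIs in 0 of 8, 3 of 46, 2 of 14 and 3 of 16 classical-poor cells, and 1 cell held 57.5%, 52.0% and 55.0% of that list's UMIs in MHC II-low cells at 1, 3 and 7 dpi. Lyz2 in these cells was 386, 745, 1628 and 1225 CPM, against 27442, 16059, 16007 and 23496 CPM in classical-rich cells, a contrast that the split itself fixed. Classical-poor cells were 20.4% of MHC II-low cells at 1 dpi, 6.83% at 3 dpi and 13.2% at 7 dpi. Some of them held genes of other cell types. For that reason values of classical-rich cells are given beside those of the whole gate.

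The classical-rich cells carried the markers of classical monocytes, which the gate and the list select for. Ly6c2 had at least 1 UMI in 100%, 64.4%, 67.5% and 74.3% of them and stood at 2493, 968, 778 and 2486 CPM from intact to 7 dpi, against 5.47 to 59.9 CPM in endothelial cells. Ccr2 stood at 857, 444, 382 and 514 CPM, against at most 2.93 CPM in endothelial cells, and Plac8 at 4208, 2211, 1933 and 2577 CPM. Ly6c2 was thus highest in the intact and 7 dpi libraries and lower at 1 and 3 dpi. As a share of all cells the classical-rich cells were 0.472% (0.251 to 0.805), 2.45% (2.10 to 2.82), 2.06% (1.78 to 2.37) and 1.41% (1.15 to 1.70). Their median depth was 5107, 4069.5, 4095 and 2795 UMIs.

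Chil3 had the most UMIs of the classical list after Lyz2 in each library. It stood at 5953 CPM (95% exact Poisson interval 5371 to 6581) in the intact library, 4424 (4281 to 4570) at 1 dpi, 2559 (2453 to 2668) at 3 dpi and 2347 (2191 to 2510) at 7 dpi in classical-rich cells. Hp, which codes for the haemoglobin-binding protein haptoglobin, was at 1512, 722, 304 and 728 CPM, and F13a1, the coagulation factor XIII subunit, at 701, 313, 222 and 445 CPM. Both were lowest at 3 dpi, a dip that Chil3 did not share. Vcan was at 62.3, 158, 72.5 and 69.5 CPM and so was highest at 1 dpi. Ms4a4c and Ifitm6, an interferon-induced transmembrane protein of monocytes, were at 1028, 360, 191 and 278 CPM and at 1091, 406, 289 and 459 CPM, highest in the intact cells.

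Over the whole gate, shares of cells with at least 1 UMI followed the same order for Vcan at matched depth. After thinning to 2000 UMIs, Vcan was seen in 15.3% of gated cells at 1 dpi (11.6 to 19.6), 8.21% at 3 dpi (5.48 to 11.7) and 6.79% at 7 dpi (3.44 to 11.8), against 1.24%, 0.272% and 1.51% of endothelial cells. Without thinning the gated shares were 26.4%, 13.9% and 10.6%. Chil3 was seen in 48.8%, 45% and 42.6% of thinned gated cells, against 3.71%, 1.90% and 1.24% of endothelial cells, with unthinned gated shares of 55.6%, 51.2% and 49.4%. Over the same cells the summed level of Chil3 was 2147, 1309 and 1351 CPM, so the level differed more between 1 and 3 dpi than the share of cells with a UMI.

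MHC II-high cells made up 0.435%, 1.67%, 1.37% and 0.790% of all cells from intact to 7 dpi. They held Cd74 at 27958, 23736, 19310 and 23354 CPM, against 358, 246, 334 and 311 CPM in classical-rich cells, which is what the split chose. Ly6c2 was seen in 25%, 24.4%, 23.6% and 35.6% of them, against 81.0%, 63.3%, 66.8% and 72.7% of MHC II-low cells. Ccr2 differed less, with 58.3%, 68.3%, 81.1% and 62.7% of MHC II-high cells against 76.2%, 68.6%, 61.0% and 63.6% of MHC II-low cells. Lyz2 was lower in MHC II-high cells in each library, at 6758, 4311, 5072 and 7752 CPM.

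Genes of antigen-presenting myeloid cells that the split did not use were also higher in the MHC II-high cells. Cd209a, a C-type lectin of monocyte-derived dendritic cells, was at 370, 460, 85.7 and 375 CPM, against 15.6, 2.43, 3.51 and 2.78 CPM in classical-rich cells. Mgl2, a galactose-binding lectin of dermal dendritic cells and macrophages, was at 226, 111, 23.8 and 198 CPM, against 0 in classical-rich cells of each library. Both lectins were lowest at 3 dpi. Il1b, the inflammatory cytokine interleukin 1 beta, was at 801, 1324, 1229 and 904 CPM, against 218, 807, 358 and 473 CPM. Cxcl16, a transmembrane chemokine and scavenger receptor, was at 123, 173, 309 and 256 CPM, against 15.6, 12.2, 111 and 94.5 CPM. Ccl17, a chemokine that draws CCR4-positive T cells, was at 0, 770, 11.9 and 52.9 CPM, so that 1 dpi stood apart. Cd72, a regulator of B cell and myeloid signalling, stood at 82.2, 11, 181 and 75 CPM, and Slamf9, a receptor of the SLAM family, at 103, 47.1, 131 and 128 CPM, both lowest at 1 dpi in MHC II-high cells. Cells that express Flt3 were left out by the gate, yet at least 3 UMIs of the dendritic cell list were still found in 25%, 29.3%, 11.8% and 25.4% of MHC II-high cells from intact to 7 dpi. That share was lowest at 3 dpi, as were Cd209a and Mgl2. Cd209a is itself on the dendritic cell list, so its level and that share are not separate measurements. The part of dendritic cells in these values was not tested.

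Other cell types' markers also moved with time over the whole gate. A microglia list was seen with at least 3 UMIs in 39.4%, 17.2%, 45.5% and 30.6% of gated cells from intact to 7 dpi, a neutrophil list in 21.2%, 27.2%, 4.52% and 11.1%, and a progenitor list in 12.1%, 8.60%, 4.52% and 11.7%. In classical-rich cells the microglia list reached 3 UMIs in 30.8%, 8.33%, 30.9% and 25.7%, the neutrophil list in 38.5%, 40.0%, 7.85% and 16.2%, and the progenitor list in 15.4%, 9.44%, 2.09% and 14.3%. In MHC II-high cells the microglia list reached 3 UMIs in 41.7%, 14.6%, 65.4% and 35.6%. The natural killer and T cell list did so in 8.33%, 17.1%, 18.1% and 20.3% of MHC II-high cells. Its shares in MHC II-low cells were 9.52%, 5.75%, 2.44% and 6.61%. For MHC II-high cells the plasmacytoid list gave 25%, 5.69%, 3.15% and 13.6%, and a B cell list 33.3%, 6.50%, 6.30% and 10.2%. All these shares are of cells not thinned, and MHC II-high cells had a median of 3659, 4661, 6292 and 3441 UMIs. Their summed microglia list was at 384, 884 and 1257 CPM at 1, 3 and 7 dpi, so highest at 7 dpi. After thinning, its 90th percentile was 1, 4 and 4.3 UMIs. Over the whole gate the list was at 626, 953 and 977 CPM, nearly level between 3 and 7 dpi. The endothelial list reached 3 UMIs in 61.5% of the 13 intact classical-rich cells, and in 1.11%, 3.66% and 2.86% after injury. Leaving out gated cells with at least 3 UMIs of such lists was tried over the whole gate, with neutrophil and progenitor markers still allowed. Genes at least 2-fold higher and lower at 3 than at 1 dpi were then 38 and 134, against 95 and 261. That step also leaves fewer cells. The part of the microglia, neutrophil or endothelial list alone in the differences that follow was not tested.

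Gene levels were compared between libraries as ratios of CPM summed over cells, for genes with at least 50 UMIs over both libraries and outside the gate, and ratios of at least 2 in either direction were counted. Between 3 dpi and 1 dpi, 95 of 5574 genes (1.7%) were at least 2-fold higher over the whole gate and 261 (4.68%) at least 2-fold lower. In classical-rich cells these were 108 of 3332 genes (3.24%) and 156 (4.68%), and in MHC II-high cells 58 of 3092 (1.88%) and 157 (5.08%). With TMM scaling the whole-gate split was 138 higher and 182 lower, so the balance of directions depends on how libraries are scaled.

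At 3 dpi many macrophage genes had a higher level in classical-rich cells than at 1 dpi. Of 19 measured genes of macrophage differentiation, 10 were past 2-fold upward and 0 downward. Their median log2 ratio was 1.31, against -0.06 for all genes tested. The contrast was smaller elsewhere: over the whole gate 5 of 20 were higher and 1 lower, with a median of 0.32 against -0.13 for all genes tested. In MHC II-low cells 6 of 20 were higher and 1 lower, with a median of 0.44. Of all 4209 genes tested there, 107 were higher and 235 lower. In MHC II-high cells 4 of 17 were higher and 1 lower, with a median of 0.29. The classical-rich cut rests mostly on Lyz2, which was itself lower in Arg1 macrophages, described below, at 1 dpi than at 3 dpi. Classical-poor cells were 20.4% of MHC II-low cells at 1 dpi and 6.83% at 3 dpi. Whether the cut took the same kind of cells at each time was not tested, here or for other classical-rich ratios. In classical-rich cells C1qb and C1qa, subunits of the complement initiator C1q, were 9.98-fold (8.09 to 12.4) and 7.58-fold (5.93 to 9.80) higher. C1qb stood at 156, 117, 1165 and 1348 CPM from intact to 7 dpi, and C1qa at 296, 88.8, 672 and 1070 CPM. Both were thus low at 1 dpi and high at 3 and 7 dpi. Ms4a7, a membrane protein of macrophages, stood at 15.6, 12.2, 247 and 178 CPM, 20.3-fold higher at 3 dpi than at 1 dpi (10.8 to 42.9). Trem2, a lipid-sensing receptor, stood at 109, 87.6, 450 and 364 CPM, 5.14-fold higher (3.99 to 6.71).

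Free RNA has to be set beside these genes, because macrophages and microglia are abundant in the same suspensions. Endothelial cells held C1qb at 193, 91.7, 118 and 276 CPM and C1qa at 164, 74.7, 112 and 247 CPM, and their levels were below those of classical-rich cells by a wide margin at 3 and 7 dpi but not at 1 dpi. They held Ms4a7 at 0.239, 0.665, 6.71 and 10.2 CPM. Apoe, the lipid carrier apolipoprotein E, stood at 2057, 2430, 12208 and 18306 CPM in classical-rich cells, against 1352, 241, 1747 and 5450 CPM in endothelial cells, and was 5.02-fold higher at 3 dpi than at 1 dpi (4.79 to 5.27). After thinning, Apoe was seen in 57.5%, 92.1% and 100% of gated cells at 1, 3 and 7 dpi, against 33.7%, 93.3% and 100% of endothelial cells, so its share at 3 and 7 dpi is that of background and the level alone sets the cells apart. Over the whole gate C1qa was almost level, at 856, 842 and 1138 CPM at 1, 3 and 7 dpi, since the classical-poor cells of 1 dpi held 2733 CPM.

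Lysosomal and lipid genes were higher at 3 dpi, on lists that overlap. Lipa and Npc2 are on both. Ctsb, Ctsd, Ctsl, Cd63 and Cd68 of the lysosome list and Apoe, Trem2 and Lpl of the lipid list also count as macrophage differentiation genes. The counts of these lists are therefore not separate measurements. In classical-rich cells 8 of 21 measured lysosome genes and 5 of 12 lipid handling genes were at least 2-fold higher than at 1 dpi and 0 of either list were lower, with medians of 0.55 and 0.63. Over the whole gate 4 of 21 lysosome genes were higher and 0 lower, and 5 of 15 lipid handling genes were higher and 2 lower, with medians of 0.43 and 0.30. Ctsd, the aspartic protease cathepsin D, stood at 842, 1150, 3166 and 1907 CPM from intact to 7 dpi and Ctsb, the cysteine protease cathepsin B, at 1028, 1153, 2861 and 1323 CPM. Both had their highest level at 3 dpi, 2.75-fold (2.55 to 2.97) and 2.48-fold (2.30 to 2.68) above 1 dpi. Acp5, an acid phosphatase, stood at 62.3, 53.5, 277 and 27.8 CPM and Fabp5, a fatty acid chaperone, was 2.38-fold higher at 3 dpi (2.00 to 2.83). In MHC II-high cells 5 of 21 lysosome genes were at least 2-fold higher and 0 lower. The share of those cells with at least 3 microglia list UMIs was 65.4% at 3 dpi and 14.6% at 1 dpi, without thinning. That list was at 884 and 384 CPM in them, and its part in these ratios was not tested.

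Iron handling followed the lysosome. Fth1, the ferritin heavy chain, stood at 4753, 11776, 20958 and 7029 CPM in classical-rich cells, and Hmox1, the haem-degrading enzyme haem oxygenase 1, at 234, 261, 719 and 150 CPM. Hmox1 was 2.75-fold higher at 3 dpi than at 1 dpi (2.35 to 3.23) and Fth1 1.78-fold (1.74 to 1.82). Of 7 measured iron genes 2 were at least 2-fold higher and 0 lower. Both genes had their highest level at 3 dpi and were under their 1 dpi level at 7 dpi.

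Several single genes had a much lower level in classical-rich cells at 3 dpi than at 1 dpi. Of the list of pro-inflammatory cytokines and enzymes 2 of 6 measured genes were at least 2-fold lower in classical-rich cells and 0 higher, and over the whole gate 0 of 8 were past 2-fold in either direction, with a median log2 ratio of -0.34. Saa3, an acute-phase apolipoprotein, stood at 77.9, 1526, 138 and 16.7 CPM in classical-rich cells from intact to 7 dpi, 11.1-fold lower at 3 dpi than at 1 dpi (9.15 to 13.5). It was seen in 13.1% of them at 3 dpi and 57.2% at 1 dpi. Cxcl3, a neutrophil-attracting chemokine, stood at 0, 281, 29.2 and 0 CPM, where 0 UMIs allow up to 10.3 CPM at 7 dpi and 57.5 CPM in the intact cells (upper Poisson bounds). Cebpb, a transcription factor of emergency myelopoiesis, stood at 171, 4871, 1456 and 1838 CPM, 3.35-fold lower at 3 dpi (3.14 to 3.57). Mmp19, a matrix metalloproteinase, stood at 0, 269, 53.8 and 16.7 CPM. Sdc4, the heparan sulfate carrier syndecan 4, was 10.1-fold lower (6.48 to 16.4), and Trem1, an amplifier of neutrophil and monocyte activation, was 3.47-fold lower (2.44 to 5.02). Each of these genes had its highest level at 1 dpi.

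Interferon-induced genes were also lower at 3 dpi. Over the whole gate 10 of 19 measured genes of the interferon list were at least 2-fold lower than at 1 dpi and 0 higher. The median log2 ratio was -1.04, against -0.13 for all genes tested. In classical-rich cells 5 of 11 were lower and 0 higher, and in MHC II-high cells 5 of 13 and 0. Isg15, a ubiquitin-like modifier, stood at 374, 471, 86.5 and 80.6 CPM in classical-rich cells, 5.44-fold lower at 3 dpi than at 1 dpi (4.23 to 7.07), although 1 cell held 25.3% of its UMIs at 1 dpi. Endothelial cells held Isg15 at 273, 163, 151 and 376 CPM, so their level was nearly the same at 1 and 3 dpi. After thinning, Isg15 was seen in 22.8%, 11.6% and 9.88% of gated cells at 1, 3 and 7 dpi, against 18.9%, 23.1% and 39.6% of endothelial cells, so the share at 3 and 7 dpi is no higher than background. Irf7, an interferon-induced transcription factor, stood at 218, 126, 58.5 and 52.8 CPM, 2.16-fold lower (1.53 to 3.09). Cxcl10, an interferon-induced T cell chemokine, stood at 0, 126, 14.3 and 57.3 CPM in MHC II-high cells, against 15.6, 30.4, 15.2 and 19.5 CPM in classical-rich cells, and 17.7% of its whole-gate UMIs at 1 dpi came from 1 cell.

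A minority of classical genes were at least 2-fold lower at 3 dpi. The classical-rich cells were chosen by the sum of this list, so their count is a description. In classical-rich cells 4 of 20 were at least 2-fold lower than at 1 dpi and 0 higher, with a median log2 ratio of -0.52, and over the whole gate 5 of 20 were lower with a median of -0.44. In MHC II-low cells 1 of 20 was lower, with a median of -0.24. Of all genes tested there, 235 of 4209 were lower, so the classical count is near the share of all genes. Cd14, the lipopolysaccharide co-receptor, stood at 982, 2445, 1018 and 653 CPM, 2.40-fold lower at 3 dpi (2.22 to 2.61), and Hp was 2.38-fold lower (2.05 to 2.76). Chil3 was 1.73-fold lower (1.64 to 1.82). The direction rests on how the cells are taken: the whole-gate median was -0.00 among cells with at least 1 UMI each of Ly6c2 and Ccr2. In MHC II-high cells 7 of 18 classical genes were lower and 0 higher.

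**Figure D3:**
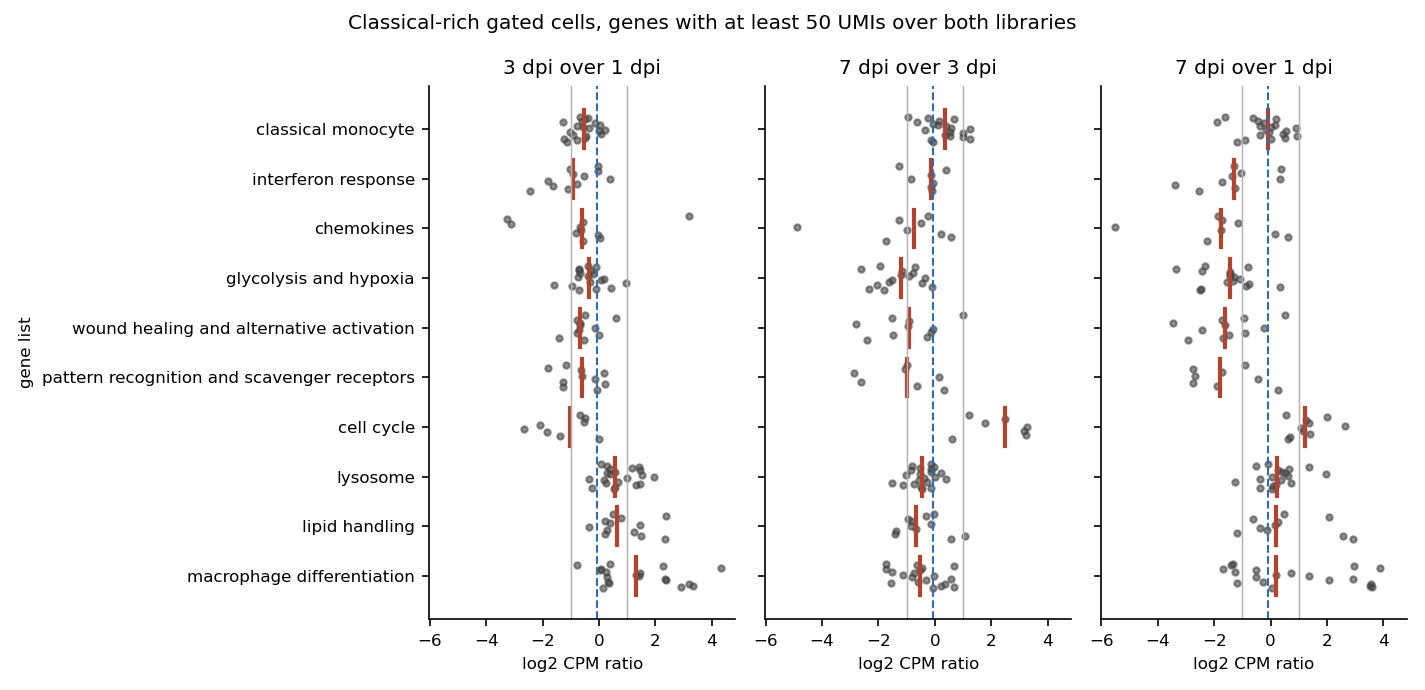
Log2 ratios of CPM between libraries in classical-rich cells, 1 point per gene, for 10 gene lists (y axis), in panels for 3 dpi over 1 dpi, 7 dpi over 3 dpi and 7 dpi over 1 dpi. Red bars are list medians, the blue dashed line the median of all genes tested and grey lines a 2-fold ratio; macrophage differentiation lies to the right at 3 dpi over 1 dpi (median 1.31), and glycolysis lies to the left in both 7 dpi panels (medians -1.21 and -1.44).

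Between 7 dpi and 3 dpi, 169 of 4350 genes (3.89%) were at least 2-fold higher over the whole gate and 242 (5.56%) lower. In classical-rich cells 121 of 2602 (4.65%) were higher and 202 (7.76%) lower, and in MHC II-high cells 75 of 2345 (3.2%) and 140 (5.97%). Lists that moved in 1 direction in classical-rich cells included the cell cycle, with 6 of 7 measured genes higher and 0 lower, and glycolysis and hypoxia, with 9 of 15 lower and 0 higher.

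Cell cycle genes were higher at 7 dpi. Hmgb2, a chromatin protein of cycling cells that is not on the cell cycle list, stood at 779, 596, 277 and 1679 CPM in classical-rich cells from intact to 7 dpi, 6.06-fold higher at 7 dpi than at 3 dpi (5.2 to 7.07), and was seen in 72.4% of cells at 7 dpi and 49.2% at 3 dpi. Pclaf, a PCNA-binding replication factor, stood at 15.6, 146, 40.9 and 381 CPM, and Ube2c, which acts in mitotic exit, at 0, 35.3, 22.2 and 217 CPM. Also outside the list, Lbr, a receptor of the inner nuclear membrane, stood at 171, 77.8, 23.4 and 139 CPM, and Scand1, a protein with a SCAN domain, at 125, 159, 33.9 and 236 CPM, with 20 to 79.6 CPM in endothelial cells. Stmn1, a microtubule regulator, stood at 77.9, 148, 105 and 587 CPM, 5.57-fold higher (4.33 to 7.22), with 377, 66.7, 333 and 319 CPM in endothelial cells. Over the whole gate 12 of 17 cell cycle genes were higher and 0 lower, with a median log2 ratio of 1.56. Without cells that held at least 2 UMIs of G2/M genes, a step that takes out much of these genes' RNA by construction, the median was 0.27 and 0 of 4 measured genes were higher.

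Some genes of immature myeloid cells were also higher at 7 dpi than at 3 dpi. Prtn3, a granule protease made mainly by marrow progenitors, stood at 156, 216, 39.8 and 325 CPM in classical-rich cells and was seen in 38.5%, 25%, 13.6% and 36.2% of them, against at most 14.1 CPM in endothelial cells. Elane, neutrophil elastase, stood at 0, 25.5, 2.34 and 153 CPM and was seen in 14.3% of classical-rich cells at 7 dpi, while Kit, a receptor of early progenitors, was at 0 in all 4 libraries. Prtn3, Elane and Kit are on the progenitor list, whose other members are not given here. In MHC II-low cells, which include classical-poor cells, 1 cell held 35.9% of that list's UMIs at 7 dpi. Several classical genes were higher too: Hp was 2.40-fold higher than at 3 dpi (2.01 to 2.85), F13a1 2.00-fold (1.61 to 2.48) and the glutathione transferase Mgst1 2.38-fold (1.94 to 2.91), and 3 of 19 classical genes were at least 2-fold higher and 0 lower. Whether progenitor-marker cells account for any of this was not tested in classical-rich cells; over the whole gate the cell cycle median without them was 1.21.

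**Figure D4:**
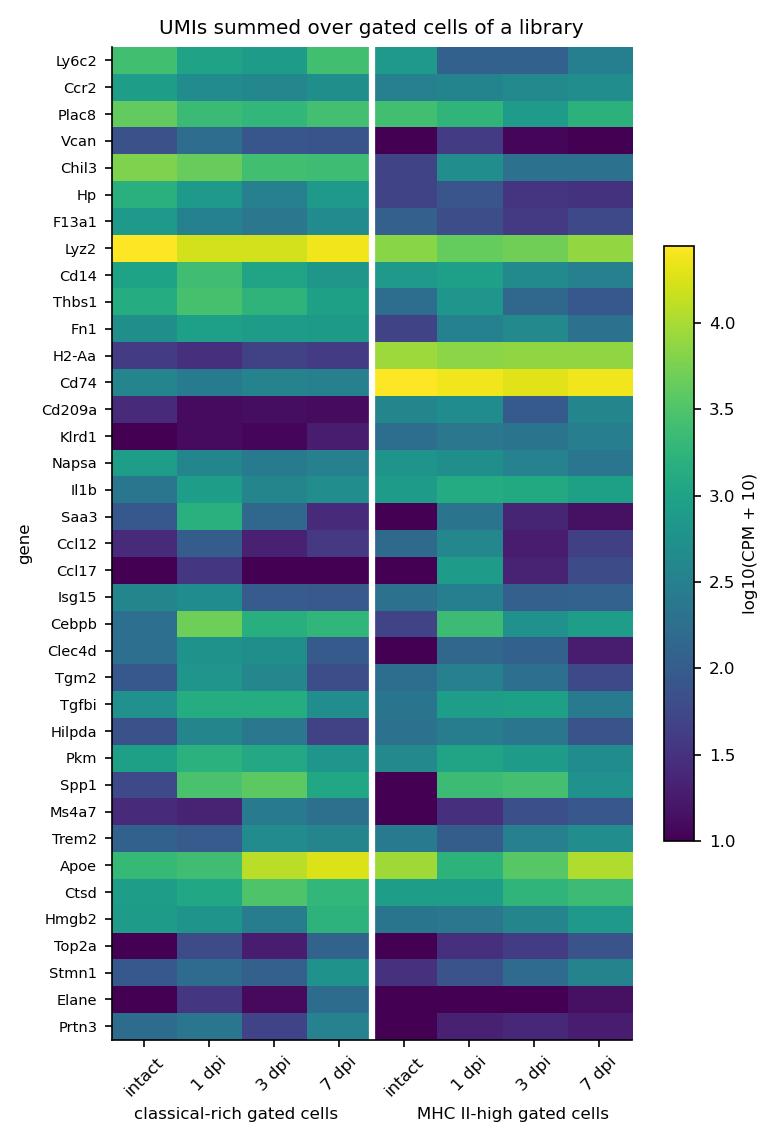
Heatmap of log10(CPM + 10) of 37 genes (rows) in intact, 1, 3 and 7 dpi libraries (columns), for classical-rich cells on the left and MHC II-high cells on the right. In classical-rich cells Saa3 and Cebpb are highest at 1 dpi, Ctsd and Ms4a7 at 3 dpi, and Hmgb2 and Apoe at 7 dpi.

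Glycolytic and hypoxia genes were lower at 7 dpi. In classical-rich cells their median log2 ratio against 3 dpi was -1.21. Ldha, lactate dehydrogenase A, stood at 499, 848, 729 and 314 CPM from intact to 7 dpi, 2.32-fold lower at 7 dpi than at 3 dpi (1.90 to 2.86). Pgam1, a glycolytic mutase, was 2.84-fold lower (2.20 to 3.70) and Tpi1, triose phosphate isomerase, 3.09-fold lower (2.24 to 4.36). Hilpda, a hypoxia-induced lipid droplet protein, stood at 62.3, 366, 222 and 36.1 CPM, and Hif1a, the hypoxia-inducible factor subunit, at 93.5, 313, 192 and 55.6 CPM. Among 1, 3 and 7 dpi, Ldha, Hilpda and Hif1a were thus highest at 1 dpi and lowest at 7 dpi. The intact values rest on 13 cells and are a description only.

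Cd14 and Clec4e of the pattern recognition and scavenger receptor list are also on the classical list that chose the cells. In classical-rich cells that receptor list had 3 of 7 measured genes at least 2-fold lower at 7 dpi than at 3 dpi. It had 0 higher, and chemokines had 3 of 8 lower and 0 higher. Pro-inflammatory cytokines and enzymes had 0 of 3 past 2-fold there, with a median log2 ratio of 0.40, and 1 of 9 higher and 0 lower over the whole gate. C5ar1, the receptor of complement fragment C5a, stood at 265, 680, 650 and 117 CPM, 5.57-fold lower at 7 dpi than at 3 dpi (4.07 to 7.81). Clec4d, a C-type lectin of activated myeloid cells, stood at 171, 565, 508 and 83.4 CPM, 6.09-fold lower (4.20 to 9.13), and its relative Clec4n at 62.3, 249, 282 and 38.9 CPM, 7.24-fold lower (4.23 to 13.4). Tgfbi, a secreted matrix protein, stood at 545, 1366, 1366 and 487 CPM, and Fcgr1, the high-affinity IgG receptor, at 171, 302, 313 and 94.5 CPM. All were at similar levels at 1 and 3 dpi and lower at 7 dpi. Ccl7, a CCR2 ligand, stood at 140, 383, 246 and 8.34 CPM, and Ccl2, the main CCR2 ligand, at 421, 1197, 815 and 247 CPM, 3.29-fold lower (2.64 to 4.16). AA467197, for which no role is given here, stood at 15.6, 1092, 546 and 5.56 CPM; its ratio of 98.2 rests on 2 UMIs at 7 dpi and has an interval of 27.0 to 813.

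Macrophage genes parted ways at 7 dpi. C1qb stayed high, while Acp5 was 9.97-fold lower than at 3 dpi (5.33 to 21.1) and Hmox1 4.79-fold lower (3.62 to 6.45). Of 19 measured macrophage differentiation genes 0 were higher and 5 lower, and of 7 iron genes 0 and 5. Spp1, the secreted phosphoprotein osteopontin, stood at 46.8, 2818, 3736 and 1120 CPM, 3.33-fold lower (3.00 to 3.71), but 16.9%, 10.3% and 23.1% of its UMIs at 1, 3 and 7 dpi came from 1 cell each. The MHC II-high cells differed from this in their chemokines, of which 5 of 8 measured were at least 2-fold higher at 7 dpi than at 3 dpi and 0 lower. Among them Ccl5 stood at 489 CPM at 7 dpi and 14.3 CPM at 3 dpi, with 54.1% of the 7 dpi UMIs in 1 cell.

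Between 7 dpi and 1 dpi the lower genes outnumbered the higher ones. Over the whole gate 147 of 4636 genes (3.17%) were at least 2-fold higher and 437 (9.43%) lower, or 188 and 344 with TMM scaling. In classical-rich cells 130 of 2633 (4.94%) were higher and 320 (12.2%) lower, and in MHC II-high cells 79 of 2085 (3.79%) and 249 (11.9%). In classical-rich cells 12 of 16 glycolysis genes, 7 of 9 interferon genes, 7 of 9 chemokines, 7 of 11 wound healing genes and 5 of 8 pattern recognition genes were at least 2-fold lower and 0 of each higher. Their medians ran from -1.30 to -1.81, against -0.08 for all genes tested. Chil3, Fn1, Thbs1 and F13a1 of the wound healing list and Cd14 and Clec4e of the pattern recognition list are also on the classical list. That list chose the cells, so these counts are in part a description. Over the whole gate 6 of 11 measured genes of each were lower and 0 higher. In MHC II-high cells 12 of 14 glycolysis genes and 7 of 8 wound healing genes were lower and 0 higher. The 1 dpi library takes part in both comparisons with later times, so the ratios to it are not separate measurements.

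Single genes in classical-rich cells showed the same contrast. Saa3 was 91.5-fold lower at 7 dpi than at 1 dpi (41.9 to 250), Lrg1, a leucine-rich glycoprotein that modifies TGF-beta signalling, 32.4-fold lower (12.5 to 120), and Tgm2, a tissue transglutaminase, 11.2-fold lower (7.15 to 18.4). Lrg1 was also lower at 7 dpi in endothelial cells, which held 43.4, 1206, 210 and 84.3 CPM from intact to 7 dpi. Basp1, a membrane-bound signalling protein, stood at 0, 277, 159 and 13.9 CPM, and Gpat3, which starts triglyceride synthesis, at 15.6, 151, 51.5 and 2.78 CPM. Cd44, the hyaluronan receptor, stood at 468, 840, 484 and 170 CPM and Thbs1, the matrix glycoprotein thrombospondin 1, at 1371, 2758, 1733 and 906 CPM. Apoe was 7.53-fold higher at 7 dpi (7.17 to 7.93), C1qb 11.6-fold higher (9.26 to 14.5) and Tnfaip2, a TNF-induced protein, 3.69-fold higher (2.44 to 5.66). Macrophage differentiation genes split, with 8 of 19 higher and 5 lower.

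The gated cells were last set beside 3 other phagocyte classes of the same libraries, which the gate's own limits help to define, so these contrasts are descriptions. Arg1 macrophages numbered 2028 at 1 dpi and 1867 at 3 dpi, Gpnmb macrophages 1331 at 3 dpi and 1215 at 7 dpi, and microglia 553, 2299 and 1795 at 1, 3 and 7 dpi. In each library with both classes, 173 of 8516 genes (2.03%) were at least 2-fold higher in gated cells than in Arg1 macrophages and 166 (1.95%) lower. Against Gpnmb macrophages 249 of 7295 (3.41%) were higher and 339 (4.65%) lower, and against microglia 239 of 7092 (3.37%) and 419 (5.91%).

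Many lysosome and lipid handling genes were lower in gated cells than in the macrophages, least so at 1 dpi. Against Arg1 macrophages 5 of 22 lysosome genes were at least 2-fold lower at 1 dpi and 12 of 22 at 3 dpi. So were 5 and 10 of 15 lipid handling genes, and 0 of either list were higher. Of all genes tested in each of those libraries alone, 426 and 574 of 8516 were lower. Against Gpnmb macrophages 15 and 16 of 22 lysosome genes were lower at 3 and 7 dpi and 0 higher. Of 15 lipid handling genes, 11 and 12 were lower and 1 higher at each time. Of all genes tested in each library alone, 567 and 778 of 7295 were lower. Spp1 was at 3373 CPM in gated cells and 24178 CPM in Arg1 macrophages at 1 dpi, and at 881 CPM in gated cells and 19655 CPM in Gpnmb macrophages at 7 dpi. Fabp5 was at 410 CPM in gated cells at 3 dpi, against 6239 CPM in Arg1 and 4729 CPM in Gpnmb macrophages. Ctsd was at 2081 CPM in gated cells at 7 dpi, against 19212 CPM in Gpnmb macrophages and 14702 CPM in microglia. Of 22 macrophage differentiation genes, 12 and 18 were at least 2-fold lower than in Arg1 macrophages at 1 and 3 dpi. Against Gpnmb macrophages 18 and 17 were lower at 3 and 7 dpi. That list shares genes with the lysosome and lipid handling lists. In classical-rich cells Ctsd was at 3166 CPM at its highest time, 3 dpi, against 12549 CPM in Arg1 and 14836 CPM in Gpnmb macrophages of that library.

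Lyz2 is given for classical-rich cells and Chil3 for the whole gate, so the genes are not set against each other. Classical-rich cells held Lyz2 at 16059, 16007 and 23496 CPM at 1, 3 and 7 dpi. Arg1 macrophages held 5653 and 25328 CPM at 1 and 3 dpi, and Gpnmb macrophages 27392 and 32728 CPM at 3 and 7 dpi. The cut that chose classical-rich cells rests mostly on Lyz2, so their higher level at 1 dpi is a description. At 3 and 7 dpi Lyz2 was lower in them than in the macrophages of the same library. Chil3 over the whole gate was at 2147, 1309 and 1351 CPM, against 1362 and 449 CPM in Arg1 macrophages and 437 and 50.8 CPM in Gpnmb macrophages, and was 1.58-fold higher than in Arg1 macrophages at 1 dpi (1.52 to 1.63). Ifitm6 separated them more widely, with 282, 196 and 329 CPM in gated cells, against 26.8 and 8.03 CPM in Arg1 macrophages, 4.50 and 4.00 CPM in Gpnmb macrophages and 0.939 to 4.74 CPM in microglia. Vcan did not separate the classes at 1 dpi, at 80.7 CPM in gated cells and 126 CPM in Arg1 macrophages. Against microglia, Cd81, C1qa and Fcrls were among the genes that were lower in gated cells at every time, with C1qa at 856, 842 and 1138 CPM, against 5415, 8150 and 9708 CPM.

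**Figure D5:**
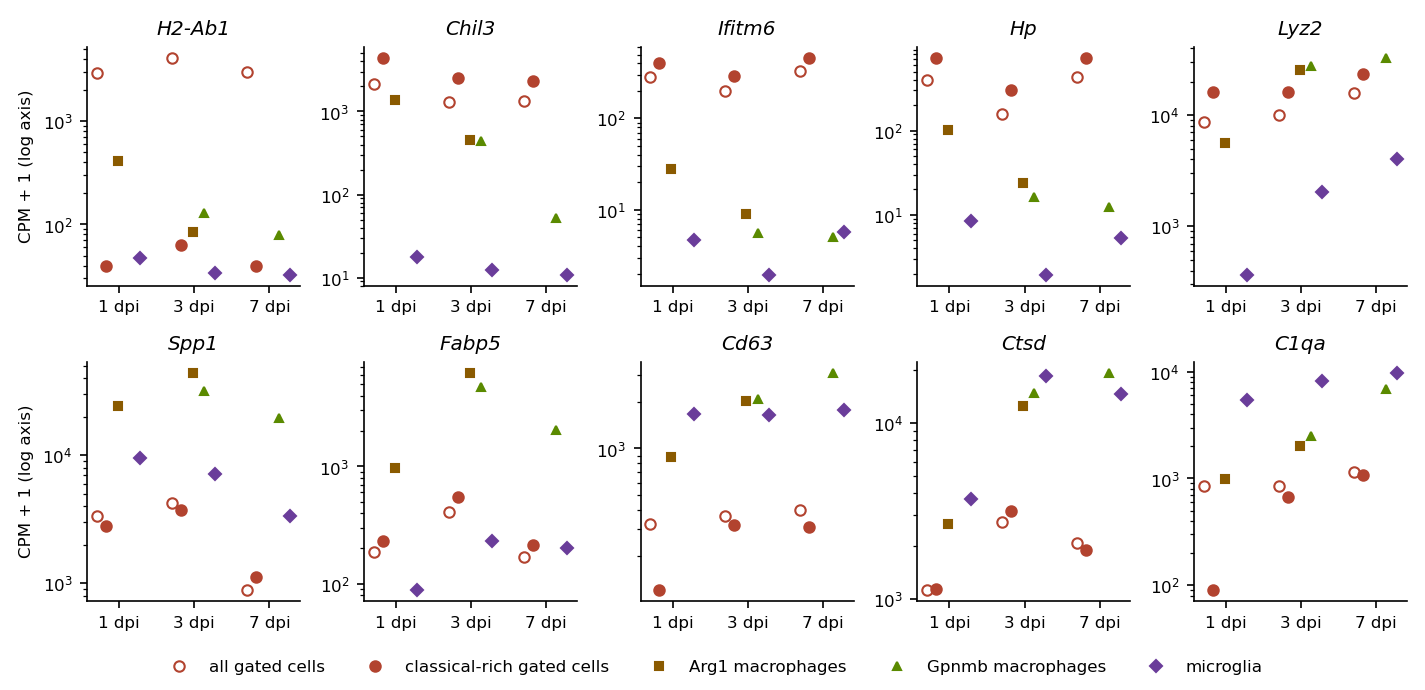
CPM plus 1 (log axis) of 10 genes at 1, 3 and 7 dpi in all gated cells, classical-rich gated cells, Arg1 macrophages, Gpnmb macrophages and microglia, 1 point per library and class. Ifitm6 is highest in the gated cells at each time, while Spp1 and Fabp5 are highest in the macrophages.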

How the data were processed

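The authors deposited whole-number UMI counts per gene and cell, made with Cell Ranger 3.0.2 per the submitters' processing notes; genome build and annotation are not given in the sources used here. The 4 time-course tables were used as deposited, and the 2 drug-injection libraries were not analysed here. Gene names were matched over the 4 tables, which left 28615 shared names, and 77 further names were left out. Counts were summed over gated cells and scaled to CPM, counts per 1000000 summed UMIs. Intervals are exact Poisson for levels, exact binomial for ratios of 2 counts and Clopper-Pearson for shares, at 95%, and cover counting error only. As each group has 1 library, no p-value was computed. Shares were also taken after thinning each cell to 2000 UMIs. Doublets were looked for with scrublet, which marked 0% to 0.571% of cells per library and was not used, and none were removed. Of the gated cells it marked 0%, 1.43%, 0.602% and 0.556% from intact to 7 dpi. Some genes are not reported here.

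The members, the 20 gene lists and the 13 lists of other cell types were chosen with earlier results of these data known, and the MHC class II and classical list limits after seeing the values. Named genes were the 10 largest ratios each way among genes with at least 50 UMIs, 50 CPM and 10% of cells in the higher library and at least 0.5 of the all-cell level there; list members and the gate's genes were added. The ratio calculation was run on simulated counts with counting error only. Such counts cannot show how it does with spread between cells or animals. Python 3.11.15, numpy 2.4.6, scipy 1.17.1, pandas 2.3.3 and matplotlib 3.10.9 were used; edgeR 4.0.16 and DESeq2 1.42.0 gave scaling factors only.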

Additional observations from a re-analysis of the deposited data

How the results depend on the processing

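No paired analysis was possible because each group has 1 library, and no library could be left out of a group for the same reason. Doublet removal was not run, as the score marked too few cells. Main counts of genes at least 2-fold higher and lower were 95 and 261 (3 against 1 dpi), 147 and 437 (7 against 1), 169 and 242 (7 against 3), and against Arg1 macrophages, Gpnmb macrophages and microglia 173 and 166, 249 and 339, 239 and 419. Of 214 alternative values of these counts and of the shares of all cells, 60 moved. Without cells bearing other types' markers, counts were 38 and 134 (3 against 1), 90 higher (7 against 1), 89 higher (7 against 3), and 485, 619 and 649 lower than the 3 classes in that order; shares were 0.254%, 3.03%, 1.63% and 1.26% from intact to 7 dpi. With no S100 limit, counts were 219 and 404 (3 against 1) and 526 lower (7 against 3), and shares 2.65%, 7.95%, 4.07% and 4.59%. With no UMI minimum, counts were 2031 and 2485 (3 against 1), 2178 and 3244 (7 against 1), and 2453 and 2825 (7 against 3); with at least 200 UMIs they were 27 and 65, 35 and 148, and 41 and 62. In classical-rich cells alone, 156 were lower (3 against 1) and 362 lower than Arg1 macrophages, with shares of 0.472%, 2.45%, 2.06% and 1.41%. Requiring Ly6c2 and Ccr2 each gave 73 and 270 (7 against 1), 86 and 150 (7 against 3), 338 and 511 lower than Arg1 and Gpnmb macrophages, and shares of 0.580%, 1.68%, 1.03% and 0.924%. Without MHC II-high cells 111 were higher than Arg1 macrophages, with shares of 0.762%, 3.07%, 2.21% and 1.62%. Shares at 1, 3 and 7 dpi were 5.61%, 4.59% and 3.03% with at least 2 UMIs and 3.41%, 2.29% and 1.81% with at least 6; at S100a8 and S100a9 below 10 they were 3.44% at 1 dpi and 2.04% at 7 dpi, and with the gate set on thinned cells 2.67% at 3 dpi. Reversed medians were 0.17 for pattern recognition and 0.044 for wound healing, 3 against 1 dpi, with Ly6c2 and Ccr2 each required; the cause was not tested. The share of all cells was highest at 1 dpi under each alternative named here, and the cell cycle median at 3 against 1 dpi, -0.42 as reported, ran from -2.64 to 0.85 (0.85 without progenitor-marker cells).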
